A study of Mus musculus with 96 samples.

Results

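The 9 genes of interferon signalling and the interferon response described here (Bst2, Stat2, Irf1, Irf7, Irf8, Irf9, Ifitm1, Ifitm2 and Ifitm3) were followed through the emergence of haematopoietic stem cells (HSCs) in the mouse embryo. They were chosen by symbol from a named list, and all 9 were among the 19836 genes of the count table. Each of the 9 had at least 30 reads over all cells, as did 15239 genes in all. The study profiled 96 single cells of C57BL/6 embryos, with no treatment or engineered allele given in the labels, by full-length cDNA sequencing of 1 sorted cell per well. At E11.5 there were 48 precursors of HSCs (pre-HSCs) from the AGM (the aorta-gonad-mesonephros region, where HSCs first arise) and 16 from the yolk sac, both sorted as Ter119-CD11b-CD144+c-kit+EPCR+. Fetal liver, the organ in which HSCs then expand, gave 16 HSCs at E12.5 sorted as Ter119-Sca-1+c-kit+EPCR+ and 16 at E14.5 sorted as Ter119-Sca-1+c-kit+CD48-CD150+. AGM and yolk sac thus shared age and gate and differed in tissue, and the liver stages differed in age and gate. Between AGM and liver, tissue, age and gate changed together and cannot be told apart, and neither can age and gate between the liver stages.

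Interferons bind cell-surface receptors and activate JAK kinases, which phosphorylate STAT transcription factors. STAT2 and IRF9 belong to the ISGF3 complex, which binds the interferon-stimulated response element (ISRE), while STAT dimers bind the gamma-activated site (GAS). Both sites drive genes that restrict viruses, among them the IFITM membrane proteins and BST2 (tetherin), and interferon signalling is also known to act on HSCs in the embryo without infection.

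The sequences next to the start sites are shown first, because matches to the pathway's binding motifs lie next to some of the 9 genes and not others. Binding itself was not tested. All 9 genes matched RefSeq promoter windows of GRCm38.p6, which run from 250 bases before to 50 bases after a start. There were 12 windows, since Irf1, Irf8 and Irf9 have more than 1 start. Motifs searched on both strands were the short ISRE core GAAANNGAAA, its longer form GAAANNGAAACT, which contains the short one, and the GAS-type palindrome TTCNNNGAA. Of all 32851 windows, 3.44% held GAAANNGAAA, 0.271% held GAAANNGAAACT and 8.3% held TTCNNNGAA. The short core was present next to Bst2, Ifitm2, Ifitm3 and Stat2, the long form next to Bst2 and Ifitm3, and the palindrome next to Bst2, Ifitm3, Irf1 and Irf8. None of these letters was found in the windows of Ifitm1, Irf7 and Irf9. The windows cover RefSeq starts only, and the GENCODE gene of Ifitm1 begins further upstream.

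In the sequences printed here, read 5′ to 3′ along the gene, capitals mark motif matches. The first is a stretch of 150 bases that ends at the Bst2 start (chr8:71537473-71537622, minus strand), where a palindrome and overlapping ISRE cores lie between 136 and 115 bases before the start.
Bst2: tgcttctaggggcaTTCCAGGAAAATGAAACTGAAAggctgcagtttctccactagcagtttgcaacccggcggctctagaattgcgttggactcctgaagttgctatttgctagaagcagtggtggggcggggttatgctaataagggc
The IFITM genes lie close together on chromosome 7, so 150 bases upstream of each RefSeq start, taken clear of annotated exons, are set side by side. They are Ifitm1 up to 49 bases before its start (chr7:140967878-140968027, plus strand), and Ifitm2 and Ifitm3 up to 27 bases before theirs (chr7:140955988-140956137 and chr7:141010771-141010920, both minus strand). The GENCODE gene of Ifitm1 begins at chr7:140967221, so the Ifitm1 stretch lies inside that gene, between exons. Sequence next to that GENCODE start was not searched.
Ifitm1: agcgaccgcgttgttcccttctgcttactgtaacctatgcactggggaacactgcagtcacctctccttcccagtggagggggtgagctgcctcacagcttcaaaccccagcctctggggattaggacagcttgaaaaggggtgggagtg
Ifitm2: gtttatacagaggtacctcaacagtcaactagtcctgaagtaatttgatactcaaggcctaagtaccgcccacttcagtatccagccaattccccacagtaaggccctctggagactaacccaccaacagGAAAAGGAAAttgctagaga
Ifitm3: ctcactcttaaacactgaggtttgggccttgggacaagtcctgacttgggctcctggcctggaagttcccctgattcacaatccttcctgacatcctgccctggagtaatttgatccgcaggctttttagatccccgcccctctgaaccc
Only the Ifitm2 stretch of these 3 held a match, from 46 to 37 bases before the start. For Ifitm3 the matches lie just after the start, in the first exon, in this 30-base stretch (chr7:141010714-141010743, minus strand) with both copies of the long ISRE form and a palindrome between them.
Ifitm3 first exon: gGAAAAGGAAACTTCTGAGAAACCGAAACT
For the transcription factors, 30 bases around each match show the palindrome next to Irf1 (chr11:53769914-53769943, plus strand), the pair of palindromes next to Irf8 (chr8:120736186-120736215, plus strand) and the ISRE core, read on the other strand, next to Stat2 (chr10:128270268-128270297, plus strand).
Irf1: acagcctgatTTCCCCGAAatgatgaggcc
Irf8: tTTCTCGGAAagagagcgcTTCAGAGAAgg
Stat2: caccctggTTTCAGTTTCctttccctagaa

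Reads in the deposited table summed to 60280645 in AGM, 22306075 in yolk sac, and 19053123 and 20585452 in the E12.5 and E14.5 livers, with 250235 to 1926882 reads per cell. HSC markers were present in every group (11 of 11 listed genes with a read), at 1293, 1071, 1106 and 1260 CPM (counts scaled to a common total per cell or group, the usual counts-per-million scale) in that order. Their lowest single-cell sums were 137, 422, 0 and 581 CPM, so E12.5 liver held at least 1 cell with no read of any HSC marker. Erythroid markers summed to 8.71 and 16.9 CPM in AGM and yolk sac, 435 CPM in E12.5 liver and 23976 CPM in E14.5 liver, where cells 3, 8, 13 and 16 held 99.7% of the list's reads. Macrophage markers summed to 775, 422, 1168 and 746 CPM, and E12.5 cell 8, which had the fewest reads and only 1011 genes, held 95.5% of that group's C1q reads. In bulk sums over a group, fewer cells with a transcript and less RNA per cell cannot be told apart, so both the summed level and the single cells are given. No animal or litter is named in the labels. Each group therefore counted as 1 sample, no test was made, and intervals cover counting error only.

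The 9 genes fell into a set read in nearly every cell and a set read in few cells. Ifitm2 and Ifitm3 had a read in all 96 cells, Ifitm1 in 93 and Bst2 in 88. Irf1 had a read in 45 cells, Irf9 in 33, Irf8 in 28, Irf7 in 19 and Stat2 in 13. The median cell held 5 of the 9 genes in AGM, 5.5 in yolk sac and 5 at both liver ages. For the 5 transcription factors alone the medians were 1, 2, 1 and 1. A cell with none of the 5 factors was seen 8 times of 48 in AGM and 5 times of 16 in each other group, and E12.5 cell 1 was the only cell with a read of all 9. That cell had the most genes of its group (10509, against a median of 4036) and only 1 read of Stat2.

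**Figure D1:**
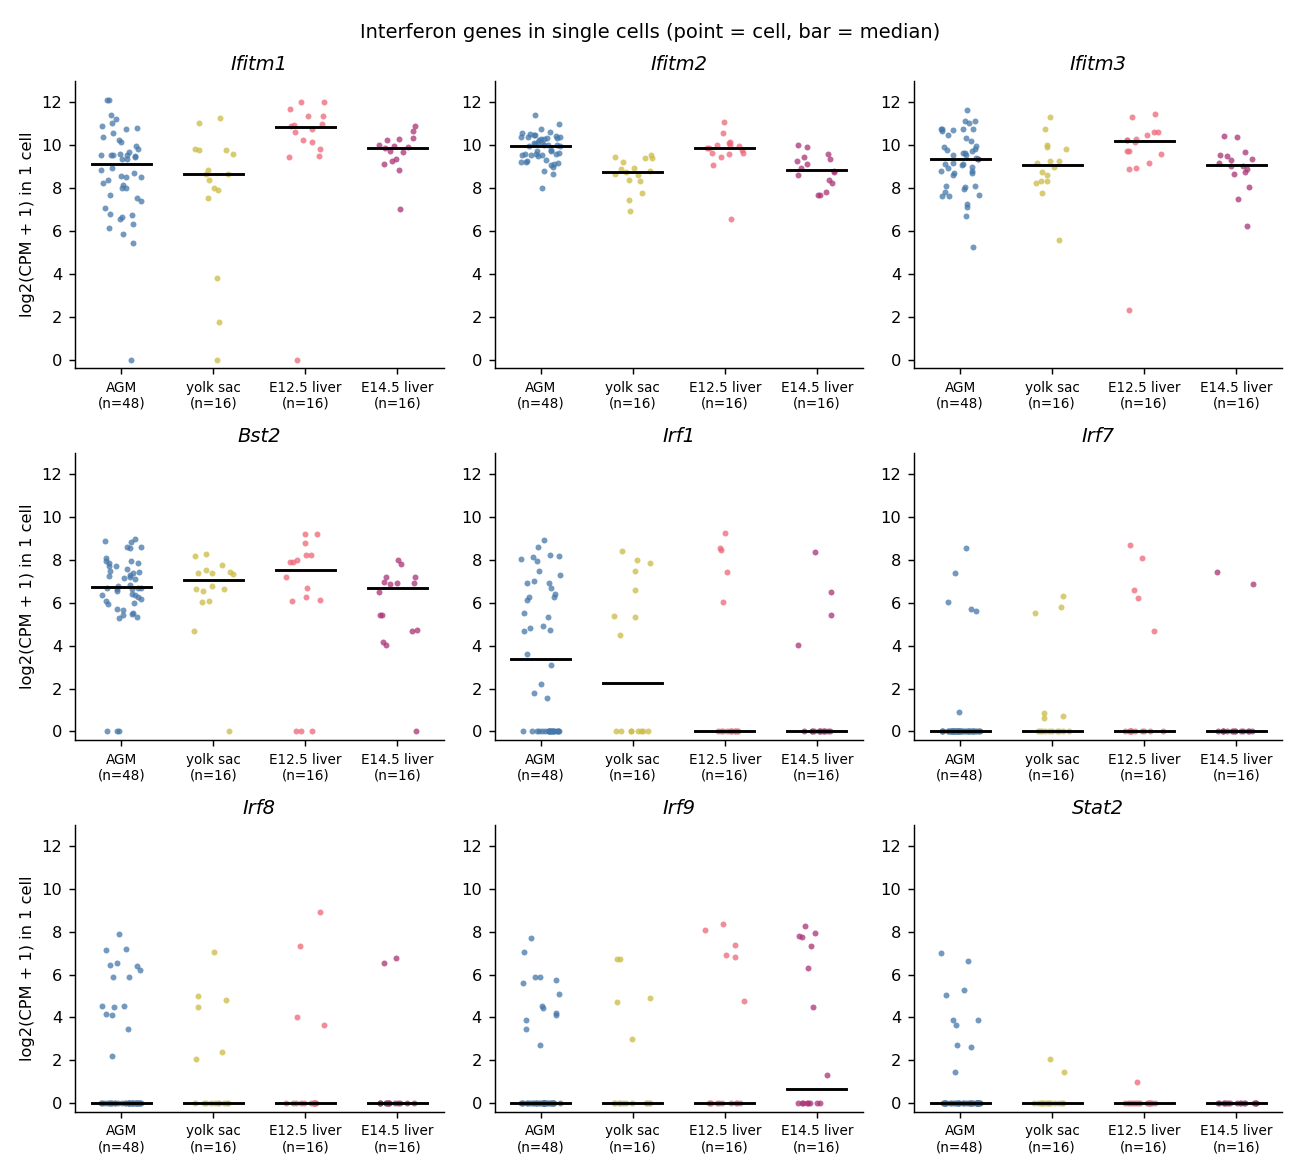
Each panel plots 1 gene as log2(CPM + 1) in every cell, by group, with the group's median as a bar. Most cells of all 4 groups have reads of the IFITM genes and Bst2. Ifitm1 has 3 cells at 0, and Bst2 has cells at 0 in every group, apart from its cells with reads. The transcription factors have many cells at 0 in every group, and Stat2 has reads in 10 AGM cells but in 0 E14.5 cells.

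Levels between genes are compared only as CPM per kilobase of exon, here the union of annotated exons. In AGM this level was 1552 for Ifitm2, 1242 for Ifitm3, 723 for Ifitm1 and 160 for Bst2. The factors stood far below, at 21.4 for Irf1, 4.12 for Irf7, 3.34 for Irf8, 2.86 for Irf9 and 1.19 for Stat2. In E12.5 liver the order among the IFITM genes was different, with Ifitm1 at 2021, Ifitm3 at 1801 and Ifitm2 at 1542 CPM per kilobase.

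**Figure D2:**
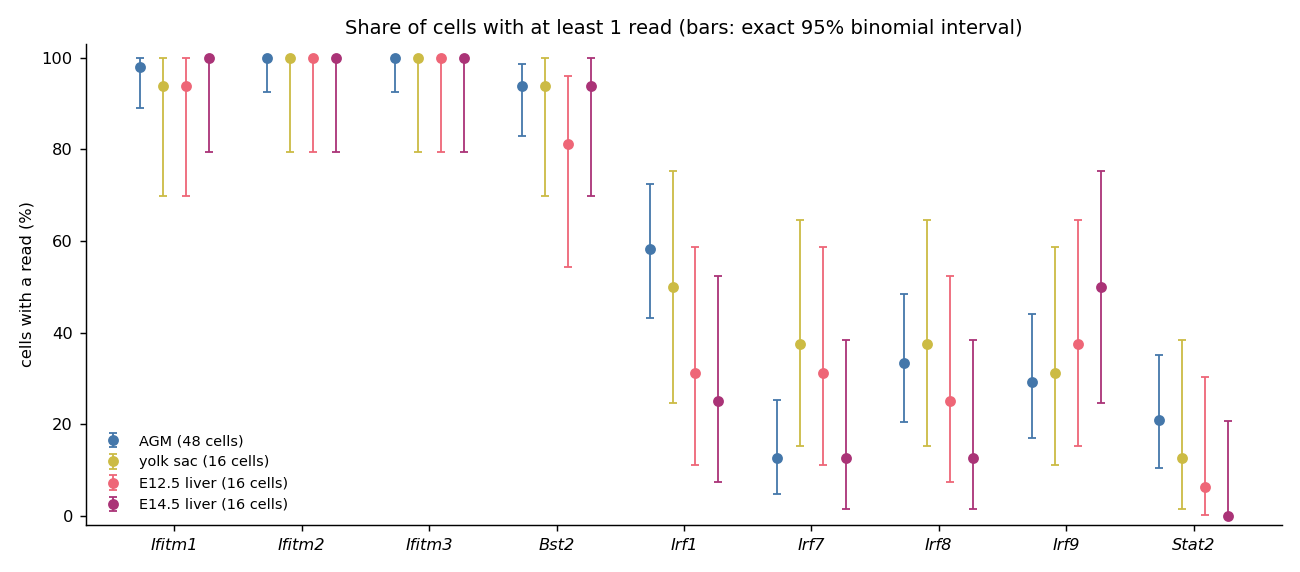
Share of cells with at least 1 read of each gene, by group, with exact 95% Clopper-Pearson intervals. Shares lie above 80% for the IFITM genes and Bst2 and at or below 58.3% for the factors, and the intervals of the 4 groups overlap for every gene.

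Against AGM, the other groups differed in a few of the 9 genes each, and in different ones. A gene was called higher or lower when its log2 ratio of summed CPM, after 1 CPM was added, reached 1 or -1, that is 2-fold. Yolk sac over AGM had 0 of 9 called higher, beside 8.61% of all genes, and 2 of 9 called lower (Stat2 and Ifitm2), beside 21%. E12.5 liver over AGM had 3 of 9 called higher (Irf9, Irf7 and Ifitm1), beside 15.6%, and 1 of 9 lower (Stat2), beside 26%. E14.5 liver over AGM had 1 of 9 called higher (Irf9), beside 15.3%, and 2 of 9 lower (Stat2 and Irf1), beside 25.3%. These 3 comparisons share the AGM cells. The shares of members called in them lay on both sides of the background.

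Between the liver stages the genes leaned one way. E14.5 over E12.5 liver had 0 of 9 called higher, beside 18.7% of all genes, and 6 of 9 called lower (Irf7, Irf1, Bst2, Ifitm1, Irf8 and Ifitm3), beside 18.2%. The median log2 ratio of the 9 genes was -1.09, where that of all genes was 0. Ifitm3 was just inside the threshold at -1.005 and Ifitm2 just outside it at -0.97. Leaving out 1 cell at a time gave 4 to 7 genes called lower and a median between -1.23 and -0.99. Without the 4 E14.5 cells rich in globin reads, 4 genes were called lower, with a median of -0.85. Averaging each cell's log2(CPM + 1) in place of summing reads, a scale on which cells at 0 weigh more, left only Irf7 called lower, with a median of -0.65.

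**Figure D3:**
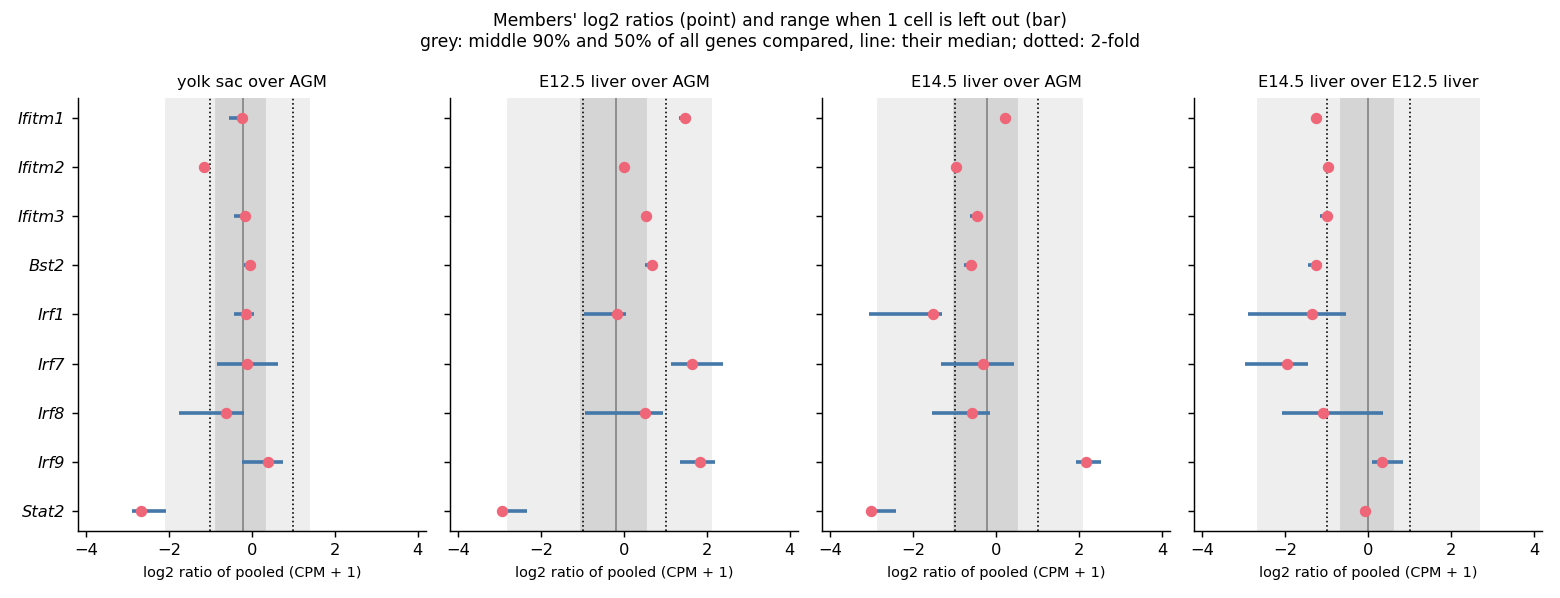
Log2 ratio of each gene in the 4 comparisons (points), with the range of that ratio when any 1 cell is left out (blue bars). Grey bands show the middle 90% and 50% of all 15239 genes and dotted lines mark 2-fold. The bars of Irf7 and Irf8 are longer than those of the IFITM genes and Bst2 in every panel, Stat2 has the shortest bar in the right-hand panel, and there 8 of 9 points lie below 0.

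No group was separate from another for any of the 9 genes: in every comparison the single cells overlapped. The order of the groups given for each gene below is therefore an order of summed levels among cells that overlap.

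Ifitm1, a small membrane protein also made in primordial germ cells, was the gene with the largest spread of levels between groups among the IFITM genes. Its lowest, median and highest cell had 0, 572 and 4439 CPM in AGM. They had 0, 404 and 2505 CPM in yolk sac. In E12.5 liver they had 0, 1831 and 4161 CPM, and in E14.5 liver 131, 951 and 1909 CPM. Cells at or near 0 were thus seen in the first 3 groups, and the middle of the distribution was highest in E12.5 liver, where 15 of 16 cells lay above the AGM median. The exception was E12.5 cell 8, the cell with 1011 genes. At E14.5 13 of 16 cells lay above the AGM median, and in yolk sac 6 of 16. Summed levels were 791, 665, 2211 and 922.5 CPM for AGM, yolk sac, E12.5 and E14.5 liver. The log2 ratio to AGM was -0.25 in yolk sac, and 1.48 and 0.22 in the E12.5 and E14.5 livers, and that of E14.5 over E12.5 liver was -1.26. The E12.5 ratio stayed between 1.34 and 1.61 with any 1 cell left out.

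Ifitm2, which sits in late endosomes and lysosomes with Ifitm3, had a different order of groups from Ifitm1. AGM cells had 260 at the lowest, 1015 in the median cell and 2738 CPM at the highest. Yolk sac cells had 121, 433 and 752 CPM. E12.5 cells had 91.9, 933 and 2172.5 CPM, and E14.5 cells had 201.3, 467 and 1024 CPM. None of the 16 yolk sac cells and 1 of 16 E14.5 cells reached above the AGM median, against 6 of 16 at E12.5. In yolk sac 3 cells lay below the lowest AGM cell, and so did 3 cells at E14.5 and 1 at E12.5. Summed levels were 1017, 457, 1010 and 517 CPM, an order in which AGM and E12.5 liver were nearly level. The log2 ratio to AGM was -1.15 in yolk sac, and -0.01 and -0.98 in the E12.5 and E14.5 livers, and the yolk sac ratio stayed between -1.24 and -1.07 with any 1 cell left out.

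Ifitm2 is also the gene whose reads are hardest to place. Of its 50-base stretches, 48.5% also occur in the transcript of another gene, mostly the pseudogene Gm45717, against 10.02% for Ifitm3 and 5.02% for Ifitm1. Of the pseudogenes concerned, Gm45717 was analysed here and had 26 reads in all, at 0.431 CPM in AGM and 0 in the other groups. Whether reads shared with such copies were counted is not given in the sources used here, and the part of this in the Ifitm2 levels was not tested.

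Ifitm3, the best studied of the 3 as a block to virus entry, had the smallest fold between its highest and lowest summed level. This was 2.01, against 2.22 for Ifitm2 and 3.33 for Ifitm1. The lowest, median and highest cell for Ifitm3 had 37.6, 658 and 3225 CPM in AGM and 46.8, 542 and 2544 CPM in yolk sac. In E12.5 liver the values were 3.996, 1177 and 2859 CPM, and in E14.5 liver 74.2, 544 and 1400 CPM. Cells at E12.5 lay highest, 12 of 16 above the AGM median, while 5 of 16 did so both in yolk sac and at E14.5. Summed levels were 842, 746, 1221 and 608 CPM. The log2 ratio to AGM was -0.18 in yolk sac, and 0.54 and -0.47 in the E12.5 and E14.5 livers. The later over the earlier liver stage was -1.005, and -0.85 without the 4 globin-rich cells, short of 2-fold.

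The IFITM genes also divided their reads differently in AGM and liver. The 3 genes together came to 2650 CPM in AGM, 1868 in yolk sac, and 4442 and 2047 in the E12.5 and E14.5 livers. Ifitm1 made up 29.9% of these reads in AGM and 35.6% in yolk sac, against 49.8% and 45.1% in E12.5 and E14.5 liver. Ifitm2 made up 38.4% in AGM and 24.5%, 22.7% and 25.2% in the others. Ifitm3 held 31.8%, 39.9%, 27.5% and 29.7%. Counted by cell, Ifitm1 was the highest of the 3 in 10 of 48 cells in AGM, 3 of 16 in yolk sac, and 8 of 16 and 12 of 16 in the E12.5 and E14.5 livers. Ifitm2 was the highest in 26 of 48 AGM cells, 6 of 16 in yolk sac, and 3 of 16 and 1 of 16 in the E12.5 and E14.5 livers. The median cell had an Ifitm1 share of 24.4% in AGM, 26.1% in yolk sac, and 42.6% and 45.2% in the E12.5 and E14.5 livers.

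**Figure D4:**
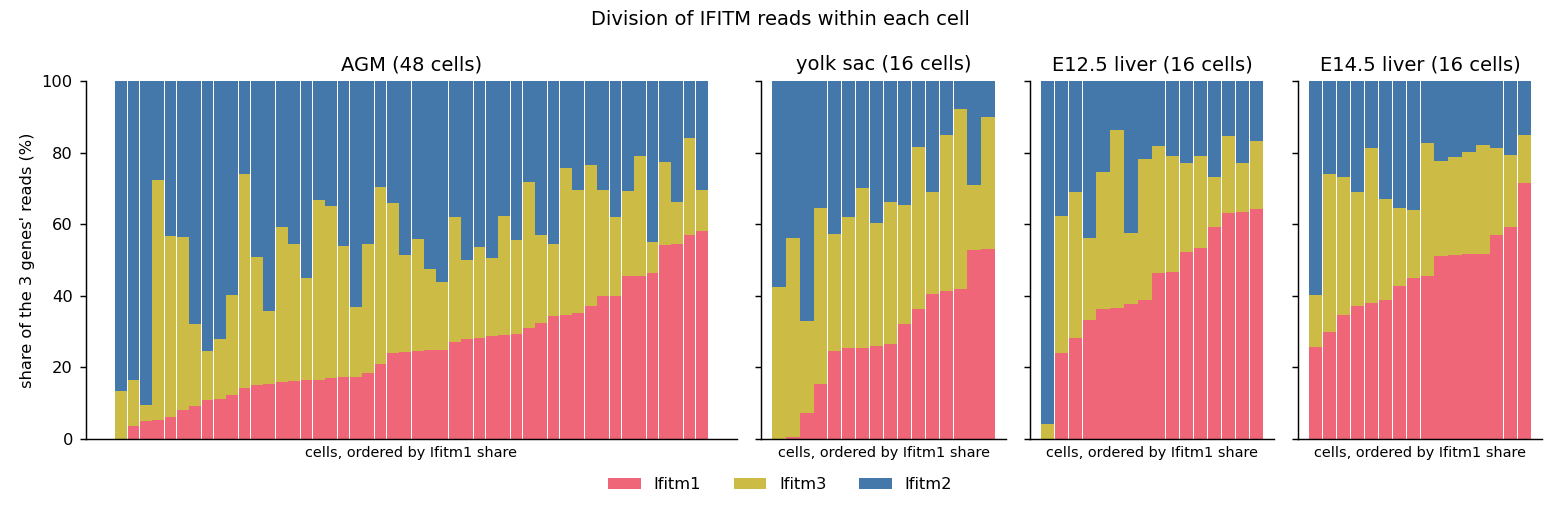
Each bar is 1 cell and divides its reads of the 3 IFITM genes into Ifitm1 (red), Ifitm3 (yellow) and Ifitm2 (blue), as a percentage, with cells ordered by the Ifitm1 share. Red takes up to 58.1% of an AGM cell and up to 71.4% of an E14.5 cell, and blue is the widest part of the bar in 26 of 48 AGM cells. The bar with most blue, at 95.8%, is an E12.5 cell.

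Bst2, which tethers budding enveloped viruses to the cell surface, was highest in summed reads at E12.5 and lowest at E14.5. Its lowest, median and highest cell had 0, 106 and 505 CPM in AGM and 0, 135 and 309 CPM in yolk sac. In E12.5 liver the values were 0, 191.8 and 601 CPM, and in E14.5 liver 0, 102.7 and 257 CPM. Cells with a read numbered 45 of 48 in AGM, 15 of 16 in yolk sac, and 13 of 16 and 15 of 16 in the E12.5 and E14.5 livers. E12.5 liver held both the highest 2 cells and the largest share of cells at 0. Summed levels were 144.1, 140.6, 228.8 and 94.3 CPM, and AGM and yolk sac differed by a log2 ratio of only -0.03. E12.5 over AGM was 0.66, but -0.32 when each cell's log2 value was averaged, so its direction rests on how cells at 0 are weighed. The E14.5 to E12.5 ratio was -1.27, between -1.45 and -1.12 with any 1 cell left out, and -0.44 as an average of log2 values.

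Of the ISGF3 genes among the 9, Stat2 had nearly all of its reads in AGM. It had 426 reads in 10 of 48 AGM cells, at 1.78 to 128 CPM in those cells, and a summed level of 7.07 CPM. In yolk sac 2 of 16 cells had a read, the higher at 3.16 CPM, with a summed level of 0.269 CPM. In E12.5 liver 1 cell had 1 read, and in E14.5 liver no cell had one, which allows a share of up to 18.75% of cells (3 of 16), or 20.6% by the exact Clopper-Pearson interval. These low counts leave wide intervals. AGM over yolk sac was 26.3-fold (95% counting interval 12.0 to 72.0), and AGM over E12.5 liver 135-fold (24.04 to 5331). On counting error alone, AGM was at least 48.5-fold higher than E14.5 liver, taking 3 reads over the E14.5 cells as the floor. It was at least 39.3-fold higher by the counting interval, which also covers the error of the AGM reads. These bounds do not cover differences between cells. Without AGM cell 17, which held 40.1% of the AGM reads, the AGM level was 4.36 CPM, which lowers all 3 folds. On the scale with 1 CPM added, the log2 ratios to AGM were -2.67, -2.94 and -3.01, and without that cell -2.08, -2.35 and -2.42. With 10 CPM added, none of the 3 reached 2-fold. AGM also had 3 times as many cells as each other group, and the intervals of the share of cells with a read overlapped between all groups.

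Irf9, the DNA-binding part of ISGF3, was highest in E14.5 liver, where Stat2 had no read. In AGM 14 of 48 cells had a read, in yolk sac 5 of 16, and in the E12.5 and E14.5 livers 6 and 8 of 16. Among cells with a read the median was 27.6 CPM in AGM, 28.6 in yolk sac, and 143.05 and 187.98 in the E12.5 and E14.5 livers, and the highest cell had 205.02, 105, 329 and 305 CPM. Both the share of cells and the level within them were thus highest in liver, with 2 E12.5 cells and 4 E14.5 cells above every AGM cell. Summed levels were 15.4, 20.6, 57.6 and 73.1 CPM. The log2 ratio to AGM was 0.40 in yolk sac, and 1.84 and 2.18 in the E12.5 and E14.5 livers. The liver ratios stayed at or above 1.34 and 1.93 with any 1 cell left out, and the E14.5 ratio was 1.93 without the globin-rich cells. The liver stages themselves were close. E14.5 over E12.5 liver was 0.34, and 0.09 both without E14.5 cell 6 and without the globin-rich cells. The yolk sac ratio turned to -0.25 without yolk sac cell 6. Exons of Irf9 overlap those of its neighbour Rnf31, and 1.82% of its 50-base stretches recur in other transcripts.

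Irf1, a factor induced by interferon-gamma that activates antiviral and MHC genes, was read in the largest share of cells in AGM and the smallest at E14.5. The counts were 28 of 48 cells in AGM, 8 of 16 in yolk sac, and 5 of 16 and 4 of 16 in the E12.5 and E14.5 livers. Among cells with a read the median was 80.9, 137, 354 and 66.5 CPM, and the highest cell had 483, 336, 603 and 325 CPM. The E12.5 cells with Irf1 were few but high, and that group's summed level of 76.1 CPM was close to the 85.1 of AGM and 76.9 of yolk sac. E14.5 liver had 29.1 CPM. The log2 ratio to AGM was -0.14, -0.16 and -1.52 in yolk sac, E12.5 and E14.5 liver. The closeness of E12.5 liver to AGM rests on E12.5 cell 15, without which the ratio was -0.97, and as an average of log2 values it was -1.01. E14.5 cell 5 held 70.3% of that group's Irf1 reads, and without it the E14.5 ratio was -3.07 to AGM and -2.91 to E12.5 liver. Between the liver stages the ratio was -1.36, and -0.54 without that same E12.5 cell, the source of 46.9% of the reads at that age.

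Irf7, the factor that amplifies type I interferon production, had reads in 6 of 48 cells in AGM, 6 of 16 in yolk sac, and 5 of 16 and 2 of 16 in the E12.5 and E14.5 livers. The highest cell had 374, 78.03, 411 and 172.35 CPM. The yolk sac thus had as many cells with a read as AGM among fewer cells. Yolk sac cells 1, 2 and 11 had only 0.52, 0.79 and 0.64 CPM, while cells 4, 6 and 7 had 44.8, 78.03 and 55.8 CPM. The median of 22.8 CPM among yolk sac cells with a read falls between these sets. It was 57.6 in AGM, 96.1 at E12.5 and 144.1 at E14.5. With at least 5 reads required, the share of cells was 18.75% in yolk sac and 10.4% in AGM. Summed levels were 15.6, 14.2, 50.5 and 12.3 CPM, highest in E12.5 liver. E12.5 over AGM was 1.64 on the log2 scale, at least 1.14 with any 1 cell left out and 2.39 without AGM cell 40. From E12.5 to E14.5 liver the ratio was -1.95, -1.45 at its smallest with 1 cell left out, -2.63 without E14.5 cell 2 and -2.97 without cell 13 of the same group. The ratio to AGM was -0.13 in yolk sac and -0.31 in E14.5 liver, and both signs turned without AGM cell 40 (0.63 and 0.44). Without yolk sac cell 6 the yolk sac ratio was -0.84, and without E14.5 cells 2 and 13 in turn the E14.5 ratio was -0.99 and -1.33.

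Irf8, a factor of monocyte and dendritic cell development, was read in 16 of 48 cells in AGM, 6 of 16 in yolk sac, and 4 of 16 and 2 of 16 in the E12.5 and E14.5 livers. The highest cell had 240, 132, 491 and 109 CPM, and the summed levels were 23.6, 14.97, 34.1 and 15.5 CPM. These sums rest on single cells, since the top cell held 60.8% of the yolk sac reads, 66.7% of the E12.5 reads and 56.4% of the E14.5 reads. The E14.5 to E12.5 ratio was -1.09, but 0.36 without E12.5 cell 16. It was -1.75 when cell 7 of the later stage was omitted and -2.07 when cell 9 was. E12.5 over AGM was 0.51, but -0.93 without E12.5 cell 16. Yolk sac over AGM was -0.62 and became -1.75 without yolk sac cell 5. E14.5 over AGM was -0.58, and -1.24 and -1.56 without E14.5 cells 7 and 9 in turn. Macrophage and dendritic markers, like Irf8, had their highest sums in E12.5 liver, at 1168 and 198.4 CPM. Other parts of the order differed: dendritic markers were lowest in AGM (71.3 CPM), and granulocyte markers were highest in E14.5 liver (1094.5 CPM). The sums also hide differences between genes. Of the markers with at least 30 reads, 8 of 8 macrophage genes had a log2 ratio above 0 in E12.5 liver over AGM. For dendritic genes 2 of 5 did and 2 were below 0. E12.5 cell 7, which held 29.3% of the dendritic reads of its group, had no read of Irf8. The part of these cell types in the Irf8 levels was not tested. E12.5 cell 8, which held more of the macrophage list's reads than any other cell, had no read of Irf8, and without it the E12.5 ratio to AGM was 0.53.

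Across cells, the IFITM genes varied together and the others hardly did. After each group's mean was taken off, Pearson's r of log2(CPM + 1) over the 96 cells was 0.70 for Ifitm1 with Ifitm3, 0.64 for Ifitm2 with Ifitm3 and 0.52 for Ifitm1 with Ifitm2. Among the other 33 pairs of the 9 genes the highest was 0.33, for Irf1 with Irf9. The 96 cells include E12.5 cell 8, the lowest of its group for Ifitm1, Ifitm2 and Ifitm3, at 0, 91.9 and 3.996 CPM. How far the IFITM correlations rest on that cell was not tested. The cells of a plate share their library preparation, and the correlation of Ifitm1, Ifitm2 and Ifitm3 with the number of genes detected per cell was 0.22, 0.03 and 0.10. Ifitm3 was the gene most like Ifitm1 among 8103 candidates read in at least 20% of cells, and Ndufb10, at 0.56, was also among its closest. For Ifitm2 the closest were S100a11 at 0.73, Ifitm3 at 0.64 and Myl6 at 0.62, and for Ifitm3 they were Ifitm1, Ifitm2 and then Cox14 at 0.60. Bst2 was most like Cacybp at 0.55, Sri at 0.54 and Pgls at 0.53. The values for Irf1 (Gfm1, 0.46) and Irf9 (Traf7, 0.53) come from 45 and 33 cells with a read, and their own correlation with genes detected was 0.29 and 0.37. Stat2, Irf7 and Irf8 were read in fewer than 30 cells and were not matched.

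The pathway around these genes was described from 109 further genes, of which 87 were analysed here and 83 had at least 30 reads. Yolk sac over AGM had 6 of the 83 higher and 20 lower, against backgrounds of 8.61% and 21% of all genes, that is 7.23% and 24.1%, and 2 to 7 higher and 18 to 28 lower with any 1 cell left out. E12.5 liver over AGM had 26 higher and 16 lower, which is 31.3% and 19.3% beside backgrounds of 15.6% and 26%. E14.5 liver over AGM had 23 higher and 18 lower, 27.7% and 21.7% beside 15.3% and 25.3%. E14.5 over E12.5 liver had 12 higher and 19 lower, 14.46% and 22.9% beside 18.7% and 18.2%. Both liver groups thus held more genes called higher over AGM than the background did, and the yolk sac did not.

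Most of those genes were effectors, the interferon-induced proteins that act on viruses and other intracellular microbes. Of the 38 with enough reads, 18 were higher and 5 lower in E12.5 liver over AGM, and 17 were higher and 7 lower in E14.5 liver over AGM. Their median log2 ratios were 0.92 and 0.87, where those of all genes were -0.20 and -0.23. With any 1 cell left out the counts higher ran from 16 to 21 and from 15 to 18. Without the 4 globin-rich cells the E14.5 counts were 14 higher and 10 lower, with a median of 0.47. In yolk sac over AGM 4 were higher and 12 lower, with ranges of 1 to 5 and 10 to 17, beside 8.61% and 21% of all genes. Their median there was -0.38, where that of all genes was -0.20, and ran from -0.86 to -0.16 with any 1 cell left out. E14.5 over E12.5 liver had 5 higher and 11 lower, beside 18.7% and 18.2% of all genes. These were 4 to 8 higher and 10 to 14 lower with any 1 cell left out, and 4 higher and 15 lower, with a median of -0.70, without the globin-rich cells. The median cell had a read of 7 of the 38 effectors in AGM, 5.5 in yolk sac, and 8.5 and 10 in the E12.5 and E14.5 livers.

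Among the effectors, Irgm1, a GTPase of cell-autonomous immunity that also acts in HSCs, had 6.30 CPM in AGM, 9.82 in yolk sac, and 124 and 64.3 in the E12.5 and E14.5 livers. Its reads were in 12 of 48, 5 of 16, 8 of 16 and 8 of 16 cells, and E12.5 over AGM was 4.10 on the log2 scale. Sp100, a nuclear body protein, had 0.597 CPM in 3 AGM cells and 47.2 CPM in 5 E14.5 cells, a log2 ratio of 4.91. Ube2l6, the conjugating enzyme for ISG15, had 16.8, 41.02, 150 and 239 CPM. Its E14.5 ratio to AGM of 3.75 was 1.04 without the globin-rich cells, and its yolk sac ratio of 1.24 was 0.62 without yolk sac cell 8. Herc6, the mouse ISG15 ligase, went the other way, from 12.2 CPM in 18 AGM cells to 0.097 CPM in 1 E14.5 cell. ISG15 itself, chosen after its values were seen because it is the partner of both enzymes, had 3.83, 2.82, 5.09 and 5.49 CPM. Adar, which edits double-stranded RNA, was at 2.94 CPM in 1 E12.5 cell and 21.2 CPM in 4 E14.5 cells, a log2 ratio of 2.49 that was 1.55 without E14.5 cell 12 and 4.47 without E12.5 cell 1.

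Ly6e, a surface protein induced by interferon, was the other abundant gene of the response. It had 425, 642, 1162 and 750 CPM and a read in 46 of 48, 16 of 16, 15 of 16 and 16 of 16 cells. E12.5 liver was again highest, with a log2 ratio of 1.45 to AGM, between 1.33 and 1.57 with any 1 cell left out, and E14.5 over E12.5 liver was -0.63.

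**Figure D5:**
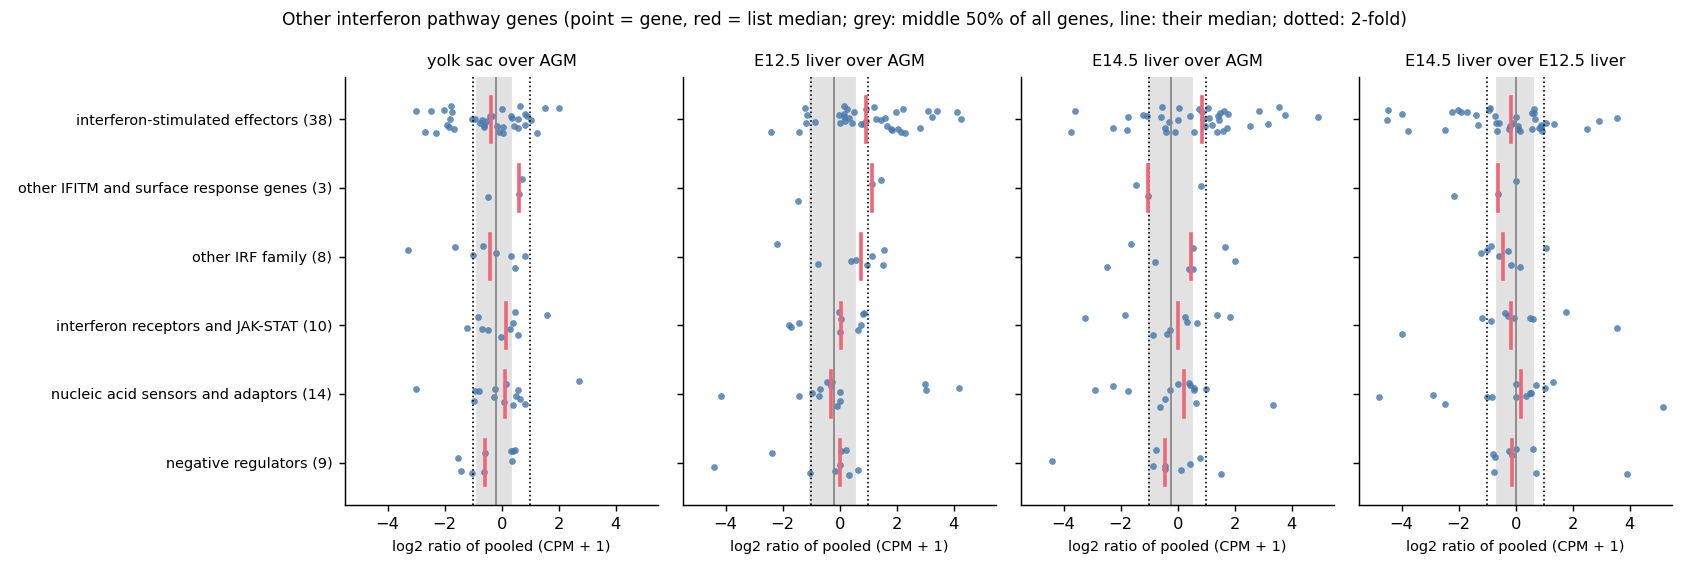
Log2 ratios of the pathway genes beside the 9, by list and comparison. Points are genes, red bars are list medians, the grey band is the middle 50% of all genes and dotted lines mark 2-fold. The effectors lie to the right in both liver comparisons with AGM (medians 0.92 and 0.87). In yolk sac over AGM their median is -0.38, beside -0.20 for all genes.

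Of the other IRF genes, 3 of 8 were higher and 1 lower in E12.5 liver over AGM, beside 15.6% and 26% of all genes, and 3 to 4 higher and 1 to 2 lower with any 1 cell left out. Irf3, which induces interferon after viral sensing, had 48.7, 87.6, 143.2 and 71.6 CPM, and its E12.5 ratio to AGM was 1.54. Irf5, a factor of inflammatory cytokine genes, had 14.2 CPM in AGM, 42.5 at E12.5 and 46.9 at E14.5, log2 ratios of 1.52 and 1.65. Irf2, which binds the same sites as Irf1 and can oppose it, had 30.1, 18.7, 66.7 and 44.2 CPM, and 1.12 in E12.5 liver over AGM. The cofactors of Irf2 differed from one another: Irf2bp1 was 2.02 in E14.5 liver over AGM, while Irf2bpl was read in 12 AGM cells and in 0 E14.5 cells. Irf2bp2 had 31.7 CPM in AGM and 17.7 in E14.5 liver, a log2 ratio of -0.80 that was -1.70 without E14.5 cell 7 and -1.41 without cell 12 of that group.

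Receptors and kinases did not shift as a list, with medians of 0.13, 0.04 and 0.00 over AGM in yolk sac, E12.5 and E14.5 liver. Jak2 had 10.4 CPM in 16 AGM cells and 0.194 CPM in 2 E14.5 cells, a log2 ratio of -3.25. Jak1 had 145.4 CPM in AGM and 79.6 in E14.5 liver, a ratio of -0.86 that was -2.295 without the 4 globin-rich cells. Tyk2, the kinase on the type I receptor, was -1.83 in E14.5 over AGM, where its reads came from cell 5 alone, and -4.28 without it. Ifngr2, a chain of the interferon-gamma receptor, was 1.37 in E14.5 over AGM, and Il10rb, shared by the lambda and interleukin-10 receptors, was 1.83, and 2.49 without AGM cell 34. Ifnar1, a chain of the type I receptor, was 1.604 in yolk sac over AGM and -1.43 in E12.5 liver over AGM, where it was read in cell 1 alone, and -3.72 without it. Stat3 lay between 77.7 and 126 CPM in all groups.

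Sensors and adaptors had 3 of 14 genes higher and 2 lower in E12.5 liver over AGM, beside 15.6% and 26% of all genes, and 1 to 5 lower when any 1 cell was left out. Ikbke and Traf3, a kinase and an adaptor upstream of the IRFs, had ratios of 4.18 and 3.04 there, and 2.53 and 1.07 without E12.5 cells 2 and 7 respectively. Without AGM cell 26 the Traf3 ratio was 3.68. The liver stages, E14.5 over E12.5, differed by 1.02 for Tmem173 (STING), 1.32 for the kinase Tbk1 and -2.90 for the RNA sensor Ddx58. Of the negative regulators, Ptpn6 (SHP-1) had 442, 565, 695 and 595 CPM, Ptpn2 had 84.9, 112, 107 and 61.9 CPM and Ptpn1 had 102, 141.3, 91.4 and 55.4 CPM. The STAT inhibitor Pias3 was 1.52 in E14.5 over AGM and 0.84 without E14.5 cell 9, Pias1 was 0.77, and Pias4 was -1.05 in E12.5 over AGM, where 3 cells had a read, and -3.21 without E12.5 cell 2. Of the 12 interferon genes listed, Ifne had 65 reads, all in 1 AGM cell, and the others were not analysed here.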

How the data were processed

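Raw read counts per gene for 96 cells were used as the authors deposited them. Per the submitters' processing notes, which give no roles or order, the tools were FastQC, Trimmomatic 0.36, STAR and HTSeq and the build was mm10. Per the labels' protocols, cDNA came from a SMART-Seq kit and libraries from 12 PCR cycles. The reads carry no molecular identifiers in the labels, and whether counting used strand is not given in the sources used here.

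All columns were matched to samples by name. Rows sharing a symbol (113) were summed. Cells needed 1000 genes, which removed none. Reads were summed per group and scaled to CPM, and log2 ratios were taken after 1 CPM was added, which understates changes of low genes. Intervals are exact 95% Poisson or Clopper-Pearson intervals. Where a group had 0 reads, 3 reads over the group were taken as the floor, and where it had 0 cells, 3 cells as the limit. No doublet caller was run, since 1 cell was sorted per well.

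The 9 genes, the pathway and marker lists and the alternatives were chosen with earlier results of these data known. All 9 genes are named. Some named-gene results are not reported here. Of the pathway lists, genes are named that were among the 3 with the largest ratio in either direction of their list in any comparison, had 30 reads and had a read in 25% of the higher group's cells. Marker lists were those of HSCs, endothelium, macrophages, granulocytes, dendritic cells, lymphoid cells, erythroid cells, megakaryocytes, hepatocytes and mesenchyme. Endothelial markers summed to 1266, 576, 778 and 505 CPM in AGM, yolk sac, E12.5 and E14.5 liver, granulocyte markers to 403, 600, 753 and 1095, dendritic markers to 71.3, 91.4, 198 and 168, megakaryocyte markers to 423, 400, 280 and 488, hepatocyte markers to 6.22, 72.2, 1.47 and 0, mesenchymal markers to 33.9, 28.4, 2.68 and 0.0486, and lymphoid markers to 4.20, 8.25, 7.56 and 5.39 CPM. Coordinates and exon lengths are those of GENCODE on GRCm38, the build mm10, and promoter sequences those of RefSeq. Genes with the most similar pattern exclude predicted, pseudogene, mitochondrial, ribosomal protein and sex-linked genes.

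Alternatives were the mean of each cell's CPM or log2(CPM + 1), cells thinned to 690000 reads, median-of-ratios scaling, 10 CPM added, cells with 2000 genes, no minimum on reads, omitting each group's deepest cell and leaving out each cell in turn. Leaving out the globin-rich E14.5 cells and E12.5 cell 8 was added after seeing the data. The arithmetic of the ratios was tested on simulated Poisson counts, drawn without differences between the cells of a group. That test therefore does not cover ratios that rest on single cells. Python 3.11.15, numpy 2.4.6, pandas 2.3.3, scipy 1.17.1 and matplotlib 3.10.9 were used.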

Additional observations from a re-analysis of the deposited data

How the results depend on the processing

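The median log2 ratio of the 9 genes in yolk sac over AGM, -0.18, was -0.35 with CPM averaged over cells, -0.20 with the mean of log2 values, -0.42 with thinned reads and -0.0804 with median-of-ratios scaling. That of E12.5 liver over AGM, 0.54, was 0.47 with the mean CPM, 0.71 with thinned reads, 0.49 without the deepest cells, and turned to -0.17 with the mean of log2 values. E14.5 over AGM, -0.58, was -0.76 with the mean of log2 values. E14.5 over E12.5 liver, -1.09, was -0.65 with the mean of log2 values, -1.32 with thinned reads and -0.85 without the 4 globin-rich cells. With 10 CPM added, genes called lower numbered 1 in yolk sac over AGM, 0 in E12.5 over AGM and 1 in E14.5 over AGM. With the mean of log2 values they numbered 1 in yolk sac over AGM and 1 in E14.5 over E12.5 liver. When single cells were omitted, the medians ranged from -0.44 to -0.10, from 0.46 to 0.66, from -0.67 to -0.45 and from -1.23 to -0.99, and genes called lower from 2 to 3, 1 to 1, 2 to 3 and 4 to 7, while genes called higher stayed at 0, 3, 1 and 0. Irf8 in E14.5 over E12.5 liver reversed from -1.09 to 0.36 without E12.5 cell 16, and was -2.07 without E14.5 cell 9. Where no value given above shows it, the cause was not tested. Of 15 called ratios, 8 missed 2-fold with the mean of log2 values, 5 with 10 CPM added, and 1 each with the mean CPM and median-of-ratios scaling. No paired analysis was possible because no cell is paired with another and no test was made. Each group rests on 1 sample, and 16 cells with no read allow a share of up to 18.75%, or 20.6% by the exact interval.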
